A study of Mus musculus with 10 samples.

Results

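The experiment described here is the doxycycline arm of a mouse pancreatic tumour model that the submitters call KrasT. All 6 KrasT libraries of the 10 libraries in the series were used, 3 from untreated tumours and 3 from tumours of doxycycline-treated hosts, chosen by the treatment in the labels and matched to the table by the tumour number in the column names. The hosts were athymic nude mice with orthotopic tumours; such mice lack most T cells but keep innate immune cells, B cells and stroma. Treated hosts drank doxycycline at 100 ug/ml with 2.5% sucrose for 2 weeks, 14 days in the labels, and untreated hosts are given as 0 days. Replicates are numbered 1 to 3 within a group in accession order, and the numbers pair nothing. Each library comes from its own tumour, and the labels do not say whether the transplanted tumours go back to the same donor tumour. They name no promoter, transgene structure, host sex or age. Untreated hosts are not described as receiving sucrose, so the sucrose and the doxycycline of the treatment cannot be told apart.

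In pancreatic tumours, growth signalling through the MAPK and PI3K cascades is known to drive nutrient use, biosynthesis and the release of growth factors. Such tumours are rich in fibroblasts, vessels and myeloid cells of the host, so RNA of whole tumour tissue mixes tumour cells and stroma. The question put to the KrasT libraries here is which gene classes other than cell cycle, MAPK output and common stromal markers differ after doxycycline, and whether each difference is seen against every untreated tumour.

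Values are FPKM, fragment values normalised for gene length and library size, as deposited. Differences are on log2(FPKM + 1), doxycycline minus untreated, which understates changes of low genes, and a gene is called when limma's Benjamini-Hochberg adjusted p is under 0.05 over the 12696 genes with at least 1 FPKM in at least 3 libraries. Total FPKM ran from 789672 to 1018968 in untreated and from 513949 to 569272 in doxycycline libraries, and cytosolic ribosomal proteins took 28.7% to 36.2% and 16.6% to 26.9% of it. The number of reads per library is unknown. Rn45s, the ribosomal RNA precursor, was 17238 FPKM in doxycycline replicate 1 and at most 2006 in the other 5 libraries. Across genes, the Pearson correlation of untreated replicate 1 with the other untreated tumours was 0.823 and 0.839, and those 2 had 0.966 with each other.

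Values per library are given in the order of replicates 1 to 3 throughout. Hras, a small GTPase upstream of the MAPK cascade, fell by 1.14 on the log2 scale, from 42.8 ± 2.82 to 18.9 ± 1.398 FPKM (SD, n = 3 each, adjusted p = 0.0196). It kept its call in 1 of the 6 refits with 1 library removed. Nras, which acts at the same step, was 28.7, 31.5 and 37.9 FPKM untreated and 21.6, 15.8 and 13.3 after doxycycline, and did not pass (adjusted p = 0.0574).

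The tumours differed among themselves in how epithelial they were, and this cuts across the treatment. Epcam, an adhesion protein of epithelia, was 7.22 FPKM in untreated replicate 1 but 374.7 and 530.2 in replicates 2 and 3, and it was 26.1, 215.0 and 143.1 FPKM after doxycycline. Cdh1, which codes for E-cadherin, was 4.67, 370.1 and 291.0 FPKM untreated and 10.9, 91.5 and 96.8 after doxycycline. For both genes untreated replicate 1 was the lowest of the 6 libraries and doxycycline replicate 1 the second lowest, so the groups overlapped and neither passed (adjusted p = 0.911 and 0.762). S100a4, a calcium-binding protein of motile mesenchymal cells, was 12149 FPKM in untreated replicate 1 and between 113.4 and 375.4 in the other 5 libraries. Vim, the mesenchymal filament vimentin, was 2324, 1474 and 1202 FPKM untreated and 1339, 424.5 and 457.5 after doxycycline, with overlapping groups (adjusted p = 0.119). The transcription factors Zeb1 and Zeb2, repressors of epithelial genes, had log2 changes of 0.88 and 1.30 that did not pass (adjusted p = 0.156 and 0.147). Keratins of simple epithelia were less even: Krt18 was 1497, 6277 and 3801 FPKM untreated and 84.2, 542.5 and 436.1 after doxycycline, and it was lower against all 3 untreated tumours (log2 change -3.60 ± 0.82 SE, adjusted p = 0.0318). Its partner Krt8 changed by -3.09 ± 0.81 (SE, adjusted p = 0.0444), while Krt19 overlapped between groups (adjusted p = 0.193). Krt8 kept its call in 1 and Krt18 in 2 of the 6 refits with 1 library removed.

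**Figure D1:**
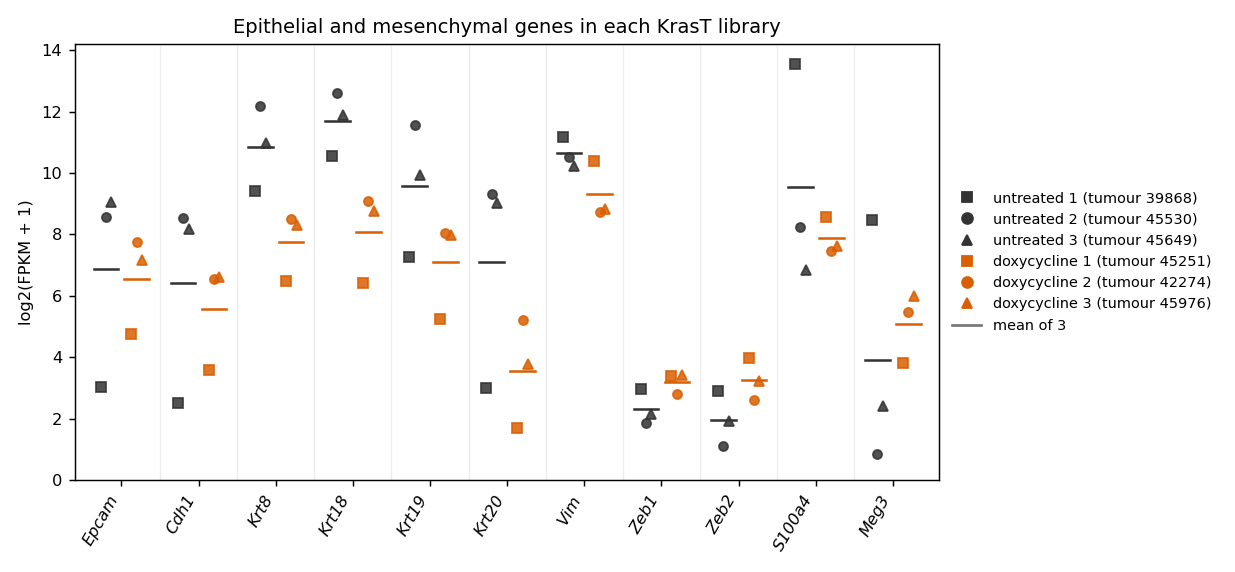
Level of 11 epithelial and mesenchymal genes on the log2(FPKM + 1) axis, 1 point per tumour, black for untreated and orange for doxycycline, with bars at the group means. Untreated replicate 1 (black square) sits lowest for Epcam and Cdh1 (7.22 and 4.67 FPKM) and highest for S100a4 (12149 FPKM).

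Other cells of the pancreas region also differed from library to library. Summed FPKM of 8 epithelial markers was 2354, 18360 and 9196 untreated and 270.6, 1694 and 1443 after doxycycline. Skeletal muscle markers summed to 5473 FPKM in doxycycline replicate 2 and 432.1 in untreated replicate 1, against 3.42 to 286.6 in the other 4 libraries. Acinar markers, the digestive enzymes of the exocrine pancreas, summed to 17239 FPKM in doxycycline replicate 3 and to at most 392.0 elsewhere. Adipocyte markers summed to 3101 FPKM in doxycycline replicate 1 and at most 203.8 elsewhere. All 8 fibroblast markers rose (summed FPKM 220.7 to 507.1 untreated and 3271 to 7484 after doxycycline). In whole tissue, fewer cells of a type and less RNA per cell cannot be told apart, and the part of these mixtures in the results below was not tested.

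Of 12696 genes tested, 2121 were called, 1074 higher and 1047 lower, so 16.7% of all genes were called, 8.46% higher and 8.25% lower. These shares are the background for every list below. Groups did not overlap for 39.8% of genes tested, 16.8% with doxycycline higher and 23% with doxycycline lower. Refits without untreated replicates 1, 2 and 3 called 33.3%, 2.69% and 0.89% of genes, those without doxycycline replicates 1, 2 and 3 called 7.91%, 7.15% and 0.945%, and quantile normalization called 8.49%. Of the genes tested, 535 had no untreated tumour at 1 FPKM or more and so passed the filter through the doxycycline group alone, and 85 passed through the untreated group alone; such genes had to differ, and their number is given for the lists in which they weigh most. The median log2 change over all genes was -0.10. Under median-ratio scaling it was 0.014, a shift of about 0.113, and 1150 genes were higher and 701 lower, so the higher share of calls went from 50.6% to 62.1%.

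Called genes were next set against each untreated tumour in turn. Every called gene differed in the same direction from all 3 untreated tumours. The call nearly requires this, because it was made with these same tumours, so the agreement is not a separate result. For 869 of 1074 rises (80.9%) and 590 of 1047 falls (56.4%) the mean of the doxycycline tumours was at least 1 log2 unit away from each untreated tumour. The genes called without untreated replicate 1, 1984 higher and 2239 lower (15.6% and 17.6% of genes tested), were then compared with it, since it had no part in calling them. Of these, 83.6% of the rises and 78.9% of the falls kept their direction against untreated replicate 1, and 73.5% and 69.9% lay beyond it in all 3 doxycycline tumours. The same exercise for untreated replicates 2 and 3 gave 98.9% and 100% of rises and 100% and 100% of falls in the same direction, over far fewer genes (188 and 64 rises, 1.48% and 0.504% of genes tested, and 153 and 49 falls, 1.21% and 0.386%).

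The 10 rises with the widest gap between groups were Dpt, Clec3b, Itgbl1, Mfap4, Fmod, Gdf10, Igf1, Prelp, Cma1 and Pi16, and all 10 were called in each of the 6 fits that left out 1 library. Itgbl1, an integrin beta-like secreted protein, was 0.387, 0.0961 and 0.374 FPKM untreated and 46.6, 41.0 and 58.7 after doxycycline (log2 change 5.27 ± 0.27 SE, adjusted p = 0.000982). Fmod, which codes for the collagen-binding proteoglycan fibromodulin, was 0.866, 0.260 and 1.14 FPKM untreated and 126.8, 44.8 and 50.4 after doxycycline. The related proteoglycan Prelp was 1.08, 0.612 and 1.67 FPKM and then 68.2, 47.2 and 71.0. For these 3 genes untreated replicate 1 was as low as the other untreated tumours. The choice by gap favours this, and it favours calls that survive the loss of 1 library, so neither is a separate result. Clec3b, Itgbl1, Gdf10 and Cma1 had no untreated tumour at 1 FPKM or more and passed the filter through the doxycycline group alone.

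Among the falls, the 10 widest gaps belonged to Prkg2, Synpr, Areg, Hmga2, Ptprn, Fam84a, Klra18, Glod5, Nptx1 and Prss22. All but Prss22 were called in each of the 6 fits that left out 1 library; Prss22 was called in 3. Fam84a was 61.6, 91.4 and 63.0 FPKM untreated and 1.88, 1.60 and 1.47 after doxycycline (log2 change -4.76 ± 0.26 SE, adjusted p = 0.000982). Nptx1, a secreted pentraxin first known from neurons, was 40.9, 62.0 and 32.4 FPKM and then 1.74, 0.2003 and 0.131. Ptprn, a membrane protein of dense-core secretory granules, was 75.3, 99.0 and 76.4 FPKM and then 2.19, 0.635 and 0.780. Hmga2, a chromatin protein of embryonic tissue and tumours, was 114.1, 140.8 and 280.2 FPKM untreated and 2.81, 3.26 and 1.66 after doxycycline (log2 change -5.57 ± 0.39 SE, adjusted p = 0.00165). Untreated replicate 1, low in epithelial genes, held the genes with values given here at levels like those of the other untreated tumours. The choice by gap favours this as well. Synpr, Areg, Klra18, Glod5 and Prss22 had no doxycycline tumour at 1 FPKM or more and passed the filter through the untreated group alone.

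**Figure D2:**
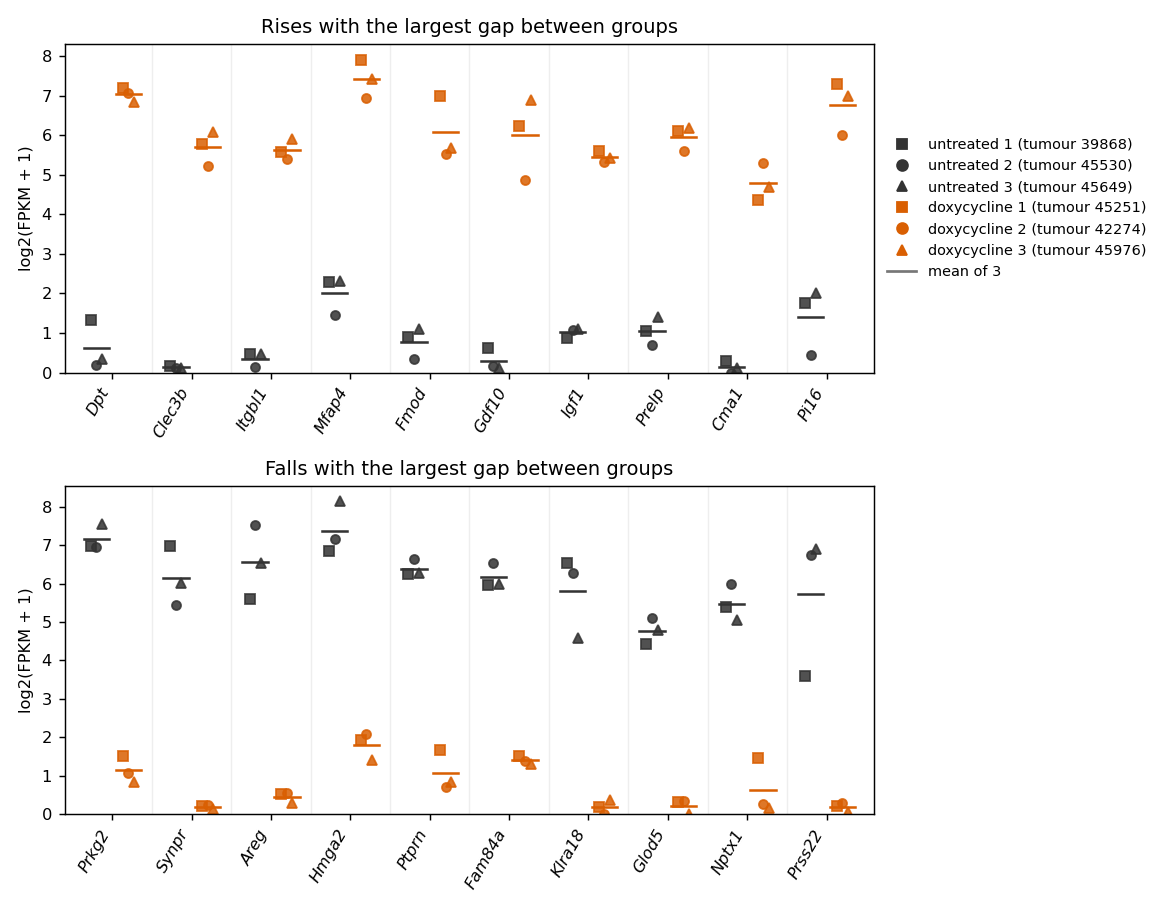
The 10 rises (top) and 10 falls (bottom) with the largest gap between groups, on the log2(FPKM + 1) axis, 1 point per tumour and bars at group means. Untreated replicate 1 (black square) lies with the other untreated tumours for each gene, which the choice by gap favours. Prss22 (11.1 FPKM against 105.3 and 117.3) is the widest departure.

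Genes that make, fold and degrade proteins were lower after doxycycline. The sharpest case was the TRiC chaperonin, the ring that folds actin and tubulin, for which all 8 subunits fell, with a median log2 change of -1.56. Cct2 was 234.2, 299.3 and 295.2 FPKM untreated and 83.8, 87.8 and 73.3 after doxycycline (log2 change -1.74 ± 0.22 SE, adjusted p = 0.00977). Cct6a was 286.1, 153.1 and 163.4 FPKM and then 52.7, 61.8 and 47.8. The median of the 8 was -1.62 against untreated replicate 1 and -1.60 and -1.45 against the other untreated tumours, so the size was alike for all 3. Of 24 chaperone genes, TRiC included, 16 fell and 1 rose. Hsp90ab1, a constitutive HSP90, fell by 1.51 on the log2 scale (1253 ± 291 to 433.1 ± 66.0 FPKM, SD, n = 3 each), and the mitochondrial chaperonin Hspd1 fell by 1.39. The exception was the small heat shock protein Hspb1, at 90.4, 67.1 and 55.6 FPKM untreated and 169.3, 140.3 and 120.9 after doxycycline (log2 change 1.02 ± 0.27 SE, adjusted p = 0.0456).

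The proteasome, which degrades ubiquitin-tagged proteins, held genes that fell and genes that rose. Of 41 subunits tested, 20 fell and 2 rose, with a median of -0.97. Psmd14, the deubiquitinase of the lid, was 163.5, 97.0 and 128.4 FPKM untreated and 39.8, 42.9 and 34.5 after doxycycline (log2 change -1.68 ± 0.26 SE, adjusted p = 0.0143), and the core subunit Psma2 fell by 1.42. The subunits that rose were Psmb8 and Psmb9, catalytic subunits that replace the standard ones in the immunoproteasome of immune and interferon-exposed cells. Each kept its call in 1 of the 6 refits with 1 library removed, the refit without untreated replicate 1. Psmb9 was 12.5, 1.33 and 1.4 FPKM untreated and 33.7, 36.4 and 32.6 after doxycycline (log2 change 3.06 ± 0.67 SE, adjusted p = 0.0289), and Psmb8 was 18.0, 3.998 and 5.71 FPKM and then 62.3, 43.1 and 40.8. Psmb10, the remaining immunoproteasome subunit, was 33.1, 20.1 and 15.1 FPKM and then 51.9, 40.7 and 54.3, and missed the threshold (adjusted p = 0.0586). Untreated replicate 1 was the highest untreated tumour for all 3, and macrophage markers, whose cells carry immunoproteasomes, summed to 171.1 to 838.6 FPKM untreated and 1280 to 3974 after doxycycline, highest among untreated tumours in replicate 1; their part in these rises was not tested.

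Translation genes were lower too. Of 28 initiation and elongation factors 17 fell and 0 rose (median -1.04). Eef1e1, a scaffold of the aminoacyl-tRNA synthetase complex, was 71.0, 57.0 and 47.2 FPKM untreated and 10.2, 14.5 and 5.60 after doxycycline (log2 change -2.48 ± 0.36 SE, adjusted p = 0.0122). The helicase Eif4a1, which unwinds mRNA leaders, was 518.0, 739.0 and 636.5 FPKM and then 286.6, 178.2 and 172.0. Of 20 cytosolic tRNA synthetases 6 fell, among them Gars (-1.66) and Cars (-1.55), and all 20 had negative log2 changes. Of 85 cytosolic ribosomal proteins 35 fell, 0 rose and 78 had all doxycycline tumours below all untreated ones, with a median of -1.16. Rps6 was 2632, 2827 and 2716 FPKM and then 709.0, 1144 and 1102. Mitochondrial ribosomal proteins fell in 11 of 77 cases (median -0.66), led by Mrps6 (140.4 ± 50.6 to 36.0 ± 11.4 FPKM, SD, n = 3 each), whereas 1 of 36 complex I subunits of the respiratory chain fell (median -0.47).

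These abundant classes depend on scaling and on single libraries. Quantile normalization left 4 of 8 TRiC genes, 1 proteasome fall with 3 rises, 3 translation factors and 0 ribosomal proteins called, with medians of -0.98, -0.49, -0.48 and -0.23, and it turned the complex I median to 0.112. No TRiC gene was called without doxycycline replicate 3 and 1 without untreated replicate 3, and no ribosomal protein or translation factor was called without doxycycline replicate 3 or untreated replicates 2 or 3.

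**Figure D3:**
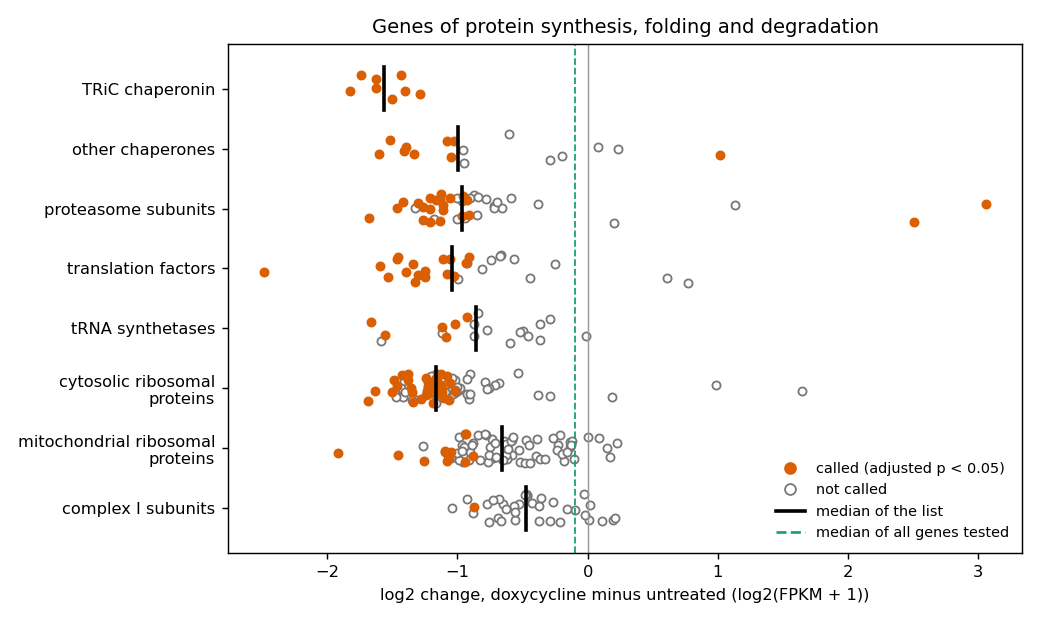
Log2 change per gene, doxycycline minus untreated, for 8 classes of protein synthesis, folding, degradation and respiration. Filled points passed the test, black bars are class medians and the dashed line is the median of all genes (-0.10); the 8 TRiC subunits lie together around -1.56, and Psmb8 and Psmb9 stand apart on the right of the proteasome row.

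Calcium-binding proteins of the S100 and annexin families were among the most abundant genes that fell. Of 23 tested, 11 fell and 1 rose (median -1.38), and under quantile normalization 5 fell and 2 rose (median -0.80). S100a6, known from proliferating cells, was 12074, 15135 and 12877 FPKM untreated and 769.6, 1313 and 1378 after doxycycline. No tumour lay between 1378 and 12074 FPKM, and the log2 change of -3.57 ± 0.33 (SE, adjusted p = 0.00404) was called in each of the 6 fits that left out 1 library. S100a16 was 860.8, 599.1 and 521.1 FPKM and then 87.9, 116.5 and 125.0, also called in all 6. Anxa2, a membrane-binding annexin that can hold plasminogen activator at the cell surface, was 1779, 3768 and 3082 FPKM and then 548.9, 445.4 and 458.0 (log2 change -2.51 ± 0.34 SE, adjusted p = 0.0103). Anxa8 and S100a11 fell by 2.69 and 2.08 on the log2 scale. Tubulins, whose folding uses TRiC, fell in 5 of 14 cases, with Tuba1c at 100.4, 158.5 and 181.4 FPKM untreated and 32.6, 19.9 and 15.8 after doxycycline, and Tubb2b at 43.1, 51.7 and 44.6 and then 10.3, 16.2 and 10.7.

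Some enzymes of cholesterol synthesis fell after doxycycline, by an amount that depended on which untreated tumour they were set against. Of 18 synthesis genes tested, 6 fell and 0 rose, and all 18 had negative log2 changes (median -1.60). Of 6 genes of sterol regulation and uptake 0 were called, and all 6 had negative log2 changes. Msmo1, a sterol demethylase, was 35.8, 105.1 and 89.8 FPKM untreated and 9.66, 13.2 and 11.2 after doxycycline (log2 change -2.53 ± 0.43 SE, adjusted p = 0.0162). Idi1, the isomerase of isoprenoid units, was 11.1, 42.0 and 39.6 FPKM and then 3.54, 8.94 and 4.08, and Sqle, squalene epoxidase, was 11.3, 36.8 and 32.2 and then 2.89, 7.09 and 4.82. For each of these genes untreated replicate 1 was the lowest untreated tumour, still above the doxycycline tumours. The median of the 18 synthesis genes was -0.65 against untreated replicate 1 and -2.24 and -2.11 against the others, and without that tumour 14 of 18 were called lower, beside 17.6% of all genes. For regulation and uptake it was -0.006, -2.07 and -2.37. No member was called without untreated replicate 2 or 3 or doxycycline replicate 3.

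Sterol genes are known targets of SREBP factors acting with NF-Y, which binds the CCAAT box. In the 250 bases before the listed start, from RefSeq on the GRCm38.p6 build, the letters CCAAT were found on either strand for 13 of 14 matched sterol synthesis genes (92.9%), beside 37.5% of all 27025 promoters in the table and 40% of the 9565 matched genes that were tested. The promoters of Msmo1 and Idi1 are shown because both genes fell and hold more than 1 match; capitals mark CCAAT or, where the match is on the other strand, its complement ATTGG.
Msmo1, chr8:64733579-64733828, minus strand: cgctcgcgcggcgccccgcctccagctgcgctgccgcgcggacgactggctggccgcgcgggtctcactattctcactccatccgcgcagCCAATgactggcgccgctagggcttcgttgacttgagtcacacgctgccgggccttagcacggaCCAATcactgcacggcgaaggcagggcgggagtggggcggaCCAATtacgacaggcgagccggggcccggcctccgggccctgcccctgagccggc
Idi1, chr13:8885356-8885605, plus strand: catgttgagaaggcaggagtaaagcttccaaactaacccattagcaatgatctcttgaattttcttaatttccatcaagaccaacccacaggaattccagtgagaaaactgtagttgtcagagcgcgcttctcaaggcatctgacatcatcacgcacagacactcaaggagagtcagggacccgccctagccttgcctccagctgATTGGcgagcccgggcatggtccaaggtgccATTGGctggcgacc
Msmo1 holds 3 matches and Idi1 holds 2. A match is a description of the letters and does not show binding.

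Genes induced by low oxygen formed a second metabolic class with falls. Of 27 hypoxia response genes, 8 fell and 1 rose (median -1.004). Ankrd37, a small target of HIF1, was 37.2, 38.6 and 24.5 FPKM untreated and 1.39, 2.01 and 1.22 after doxycycline, and it was called in each of the 6 fits that left out 1 library (log2 change -3.75 ± 0.29 SE, adjusted p = 0.00269). Bnip3, a mitophagy receptor, was 169.9, 174.2 and 97.3 FPKM and then 40.6, 38.7 and 25.7. For both genes untreated replicate 1 was as high as the other untreated tumours. The glucose transporter Slc2a1 was 47.2, 378.5 and 213.5 FPKM and then 19.9, 15.5 and 12.1 (log2 change -3.25 ± 0.72 SE, adjusted p = 0.0292), and the prolyl hydroxylase Egln3, which acts back on HIF, was 19.6, 73.3 and 40.8 and then 5.05, 11.9 and 5.61. Car9, a carbonic anhydrase often used as a hypoxia marker, did not hold against untreated replicate 1: it was 7.19 FPKM there, 344.6 and 154.8 in the other untreated tumours and 2.17, 29.8 and 19.3 after doxycycline (adjusted p = 0.263). Pfkfb4, a regulator of glycolytic flux, went the other way, at 2.41, 1.45 and 1.43 FPKM untreated and 9.11, 4.58 and 8.58 after doxycycline (log2 change 1.58 ± 0.33 SE, adjusted p = 0.026). Only Ankrd37 was called without doxycycline replicate 3, and 1 and 2 hypoxia genes were called lower without untreated replicates 2 and 3.

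The core of the hypoxia response element, ACGTG, was found on either strand in the 250 bases before the start for 14 of 20 matched hypoxia genes (70%), beside 18.5% of all promoters in the table and 24.6% of matched tested genes. ACGTG is contained in the E-box CACGTG, which 3 of these 20 promoters hold. The promoters of Slc2a1 and Egln3 are shown as members that fell, with the match in capitals.
Slc2a1, chr4:119108495-119108744, plus strand: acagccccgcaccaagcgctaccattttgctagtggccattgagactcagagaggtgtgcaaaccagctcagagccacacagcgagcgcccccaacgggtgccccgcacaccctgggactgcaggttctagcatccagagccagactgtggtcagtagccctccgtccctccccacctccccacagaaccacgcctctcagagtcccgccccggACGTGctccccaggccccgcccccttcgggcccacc
Egln3, chr12:54203875-54204124, minus strand: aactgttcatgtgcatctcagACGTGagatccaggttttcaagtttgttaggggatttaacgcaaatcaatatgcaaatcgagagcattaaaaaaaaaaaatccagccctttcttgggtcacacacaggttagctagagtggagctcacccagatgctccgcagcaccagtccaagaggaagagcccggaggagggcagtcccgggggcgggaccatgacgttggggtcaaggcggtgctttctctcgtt
Each of these promoters holds 1 match. Over the whole comparison, the ETS core CCGGAAG, bound by factors of the ETS family, some of which act below MAPK signalling, was present in 21.1% of the 796 matched promoters of genes called lower, in 3.59% of the 752 of genes called higher and in 15.3% of matched tested genes. It was in 30.6%, 29.2% and 28.6% of matched proteasome, cytosolic ribosomal protein and TRiC promoters. For sterol synthesis, hypoxia and Hox genes the shares were 14.3%, 5% and 0%. A part of ETS factors in the falls was not tested. The AP-1 site TGACTCA was present in 5.53% and 4.52%, beside 4.22% of tested genes, and the E-box CACGTG in 9.3% and 7.31%, beside 9.71%.

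Antioxidant genes went in both directions. Of 27 genes of the NRF2 and glutathione list, 7 fell and 5 rose. Those that fell included enzymes that keep glutathione and thioredoxin reduced inside cells: Gsr, glutathione reductase, was 77.3, 507.9 and 357.8 FPKM untreated and 16.5, 17.1 and 15.2 after doxycycline (log2 change -3.81 ± 0.66 SE, adjusted p = 0.017), and Gss, glutathione synthetase, was 39.9, 75.2 and 66.6 and then 9.37, 14.2 and 12.6. Thioredoxin Txn1 fell by 1.67 on the log2 scale, its reductase Txnrd1 by 1.55 and the cystine transporter Slc7a11 by 1.49. Those that rose included 2 secreted enzymes, the plasma glutathione peroxidase Gpx3, at 258.0, 66.0 and 63.5 FPKM untreated and 2336, 549.3 and 1374 after doxycycline (log2 change 3.54 ± 0.71 SE, adjusted p = 0.0235), and the extracellular superoxide dismutase Sod3, at 6.66, 2.54 and 3.31 and then 79.9, 29.4 and 42.7. Gstm2, a glutathione transferase, rose by 2.38. Untreated replicate 1 was the lowest untreated tumour for Gsr and Gss and the highest for Gpx3 and Sod3, and no gene of the list was called without untreated replicate 3 or doxycycline replicate 3.

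Retinoid enzymes likewise went in both directions. Aldh1a3, which makes retinoic acid, was 56.3, 569.1 and 504.8 FPKM untreated and 11.03, 7.30 and 2.60 after doxycycline (log2 change -5.16 ± 0.93 SE, adjusted p = 0.0183), and the retinol dehydrogenase Rdh10 fell by 2.05. The paralogues Aldh1a1 and Aldh1a2 rose: Aldh1a2 was 2.68, 3.71 and 6.44 FPKM and then 37.2, 15.9 and 37.0 (2.52 ± 0.43 SE, adjusted p = 0.017), and Aldh1a1 was 1.05, 7.79 and 2.23 and then 37.4, 17.9 and 29.5. Over the 14 retinoid genes tested 3 rose and 2 fell. Aldh1a3, Rdh10 and Aldh1a2 were not called without untreated replicates 2 or 3 or doxycycline replicate 3, nor was Aldh1a1 without untreated replicate 3 or doxycycline replicates 1 or 3.

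Several ligands of the EGF receptor fell. Of 9 ligands listed 7 were tested and 4 of them fell, 0 rose and 1 had a positive log2 change; 2 of the 4 passed the filter through the untreated group alone. Of 3 receptors of the ErbB family tested 0 were called, and all 3 had negative log2 changes; the difference between ligands and receptors was not tested. Areg, amphiregulin, was 47.7, 181.3 and 91.1 FPKM untreated and 0.433, 0.477 and 0.217 after doxycycline. Ereg, epiregulin, was 5.74, 22.5 and 25.0 FPKM and then 0.401, 0.225 and 0.224. Hbegf, heparin-binding EGF, was 82.1, 187.9 and 175.8 FPKM and then 4.70, 16.04 and 12.5 (log2 change -3.68 ± 0.51 SE, adjusted p = 0.0105), and Btc, betacellulin, was 23.7, 50.2 and 37.6 and then 0.917, 5.15 and 2.35. Untreated replicate 1 was the lowest untreated tumour for all 4, and still lay above every doxycycline tumour for each. Areg was the 1 ligand called in all 6 fits that left out 1 library.

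Genes of surface proteolysis and adhesion went in both directions. In the plasminogen and protease list, 5 of 13 activators and receptors fell and 1 rose, while 3 of 10 inhibitors rose. The median of the activators and receptors was 0.133 against untreated replicate 1 and -2.78 and -2.13 against the others, so its sign turned with that tumour. Plaur, the urokinase receptor, was 107.2, 661.0 and 500.6 FPKM untreated and 30.8, 17.3 and 16.5 after doxycycline (log2 change -3.93 ± 0.68 SE, adjusted p = 0.017). F2r, the thrombin receptor, was 162.1, 234.3 and 156.3 FPKM and then 36.3, 23.7 and 23.9 and was called in all 6 fits that left out 1 library (-2.68 ± 0.28 SE, adjusted p = 0.00592). Plat, tissue plasminogen activator, fell by 2.89. Among 14 integrins 3 fell and 2 rose: Itga3 was 65.7, 344.7 and 249.8 FPKM and then 11.4, 20.8 and 26.2, Itga6 was 53.0, 139.8 and 126.1 and then 12.9, 16.05 and 14.4, and Itgb1, the beta chain that pairs with both, fell by 1.89. Of the 2 integrin rises 1 passed the filter through the doxycycline group alone. Of 9 laminins 2 rose and 0 fell, while 5 had negative log2 changes (median -1.11). Those that rose, Lama2 (2.43) and Lama4 (2.14), are alpha chains of muscle and vessel basement membranes. Of the 6 fits that left out 1 library, Plaur and Lama2 were called in 3 each and Itga6 in 4. Itgb1 and Lama4 were called in 2 each, and Plat and Itga3 in 1 each.

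Ligands, receptors and feedback genes of the Wnt pathway were among the rises. Wnt ligands bind Frizzled receptors, R-spondins acting through Lgr receptors prolong the signal, and beta-catenin then induces feedback genes that restrain it. Of 43 genes listed 38 were tested, and 13 rose and 1 fell. Of the 38, 8 passed the filter through the doxycycline group alone, and 7 of these 8 rose; of the other 30, 6 rose. Among ligands, Rspo1 was 0.0954, 0.337 and 0.0820 FPKM untreated and 10.5, 4.77 and 15.8 after doxycycline (log2 change 3.15 ± 0.41 SE, adjusted p = 0.00978), Wnt9a was 0.774, 0.534 and 0.433 and then 2.61, 8.55 and 7.85, and Wnt5b, a ligand known for beta-catenin-independent signalling, rose by 2.46. Of the receptors, Fzd1 was 13.9, 13.8 and 11.2 FPKM and then 73.2, 73.3 and 80.9, a change of 2.46 ± 0.22 (SE, adjusted p = 0.00361) called in all 6 fits that left out 1 library. Lgr5 was 0.548, 0.570 and 0.240 FPKM and then 1.70, 2.98 and 3.41. Fzd6, which restrains beta-catenin signalling in some settings, was the 1 member that fell (-1.29 ± 0.32 SE, adjusted p = 0.0384).

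Of 9 feedback genes 5 rose, and 3 of these, Axin2, Nkd1 and Notum, had no untreated tumour at 1 FPKM or more and were tested through their doxycycline levels alone. Axin2, a scaffold that promotes beta-catenin breakdown, was 0.855, 0.822 and 0.733 FPKM untreated and 6.40, 12.7 and 17.8 after doxycycline (log2 change 2.78 ± 0.38 SE, adjusted p = 0.0103). Nkd1 was 0.613, 0.659 and 0.854 FPKM and then 6.24, 8.61 and 15.8, and Nkd2 was 1.13, 0.161 and 0.982 and then 18.3, 35.4 and 59.5; both code for inhibitors of Dishevelled. Notum, which inactivates secreted Wnts, was 0.515, 0.303 and 0.258 FPKM and then 6.19, 3.74 and 6.46, and the transcription factor Sp5 was 0.137, 1.20 and 0.141 and then 1.95, 2.84 and 2.96. All 3 doxycycline tumours were above all untreated ones for each of these, and doxycycline replicate 1, the tumour with the lowest summed epithelial markers, was the lowest treated tumour for Axin2, Nkd1, Nkd2 and Sp5. The secreted inhibitors Sfrp2 (0.434, 0.230 and 0.149 FPKM and then 10.7, 47.4 and 76.7), Sfrp1 (log2 change 3.14) and Dkk3 (2.44) rose as well. Leaving out untreated replicate 2 kept 9 Wnt genes called higher and leaving out doxycycline replicate 3 kept 4; without untreated replicate 3 it was 2, Fzd1 and Nkd2. Under quantile normalization 9 were called higher and 0 lower. Fibroblast markers, whose cells make several of these secreted proteins, rose alongside, and their part was not tested.

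**Figure D4:**
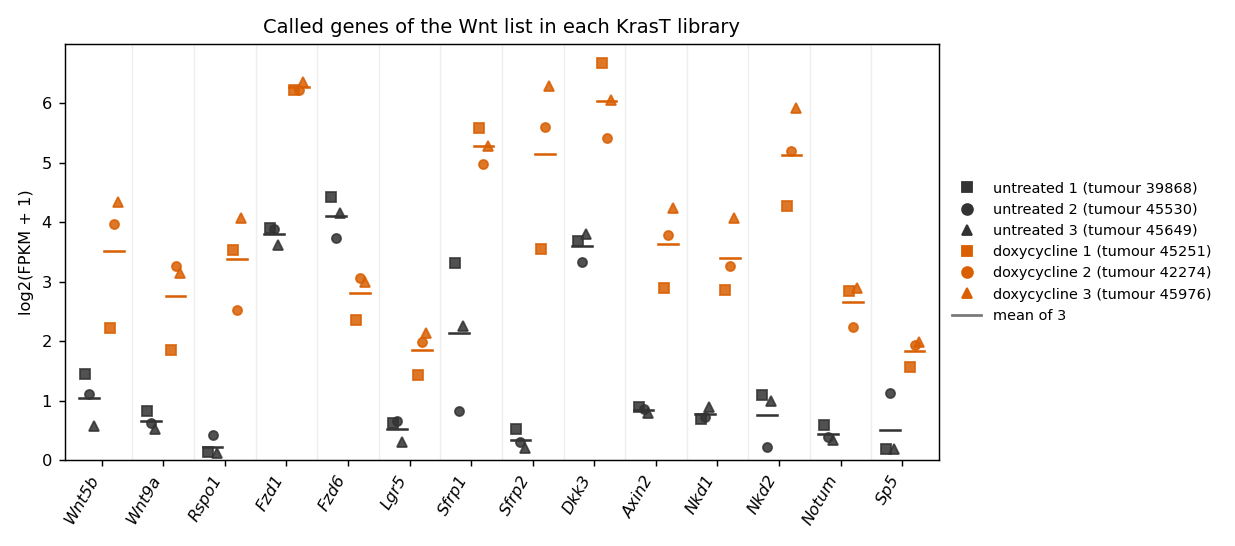
The 14 called genes of the Wnt list on the log2(FPKM + 1) axis, 1 point per tumour and bars at group means. Fzd1 is nearly alike within each group (11.2 to 13.9 and 73.2 to 80.9 FPKM), and Axin2, Nkd1, Nkd2, Notum and Sp5 lie higher in all 3 doxycycline tumours than in any untreated one.

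Chemokines that passed the test were higher, and cytokines went both ways. Of 23 chemokines 7 rose and 0 fell (median 1.39), and under quantile normalization 4 rose and 1 fell. Of the 23, 3 passed the filter through the doxycycline group alone, and 2 of these, Cxcl9 and Cxcl15, rose. Of the other 20, 5 rose. Cxcl12, a stromal chemokine that binds Cxcr4, was 4.51, 0.542 and 0.785 FPKM untreated and 81.7, 24.5 and 24.6 after doxycycline (log2 change 3.93 ± 0.66 SE, adjusted p = 0.016). Ccl4, which draws monocytes and NK cells, was 1.08, 0.144 and 0.560 FPKM and then 11.7, 5.65 and 7.86. The other rises were Cxcl9 and Cxcl15 (2.44 and 1.74), and Ccl2, Ccl3 and Ccl5. Cytokines and growth factors were mixed, with 2 of 18 higher and 3 lower (median -0.70): Csf1, the macrophage growth factor, was 5.17, 1.19 and 1.21 FPKM and then 25.7, 9.10 and 13.5, whereas Tnfsf9, a costimulatory ligand, was 14.4, 56.5 and 50.6 and then 2.46, 3.37 and 4.92 (log2 change -3.0 ± 0.54 SE, adjusted p = 0.0183), and Il11, a cytokine of the IL6 family, fell by 1.43. For cytokines, 1 of the 2 rises passed the filter through the doxycycline group alone. Likewise 2 of the 3 falls, Il11 among them, passed it through the untreated group alone. Csf1, Tnfsf9 and Il11 lost their calls in every refit with a library removed, except that without untreated replicate 1. No chemokine was called without untreated replicate 3.

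Several complement genes rose. Of 15 complement genes 7 rose and 0 fell (median 2.16), and of 5 acute phase genes 1 rose. C4b was 4.29, 6.55 and 5.41 FPKM untreated and 99.0, 89.5 and 140.5 after doxycycline (log2 change 4.10 ± 0.28 SE, adjusted p = 0.00149). C1ra, a protease that starts the classical pathway, was 2.49, 1.65 and 1.63 FPKM and then 82.6, 28.5 and 53.4 (4.14 ± 0.41 SE, adjusted p = 0.00465), and the central component C3 was 7.39, 17.2 and 10.9 and then 454.7, 97.7 and 213.6. C4b and C1ra were called in all 6 fits that left out 1 library, and C3 in 4, not without untreated replicate 3 or doxycycline replicate 3. Against untreated replicate 1 alone the log2 changes of C1ra, C4b and C3 were 3.87, 4.36 and 4.66.

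Markers of several host cells were counted with the same fit. For mast cells, granulated tissue cells that respond to IgE, 6 of 7 markers were tested and 5 rose, but 4 of the 6 had no untreated tumour at 1 FPKM or more and entered the test through the doxycycline group alone. The chymase Cma1 was 0.233, 0 and 0.0754 FPKM untreated and 19.4, 38.4 and 24.9 after doxycycline, the tryptase Tpsb2 was 1.61, 0.229 and 0.0744 and then 23.6, 45.8 and 34.7, and the carboxypeptidase Cpa3 was 0.412, 0.0547 and 0.106 and then 13.1, 19.8 and 13.2. These 3 proteases were called in all 6 fits that left out 1 library, with log2 changes of 4.65, 4.51 and 3.77. Kit and the IgE receptor chain Fcer1a rose by 1.20 and 1.82, and the protease Mcpt4 did not pass (adjusted p = 0.0534). Summed mast cell markers were 1.08 to 7.77 FPKM untreated and 73.6 to 143.2 after doxycycline.

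Of 8 endothelial markers 7 rose (median 2.00), and summed FPKM was 18.9 to 36.3 untreated and 85.8 to 184.6 after doxycycline. Pericyte and smooth muscle markers rose in 5 of 12 cases, macrophage markers in 2 of 8 and dendritic cell markers in 3 of 5. Some of these rises were of markers that passed the filter through the doxycycline group alone. They were 2 of the 7 endothelial, 1 of the 5 pericyte and smooth muscle and 2 of the 3 dendritic cell rises. For B and plasma cells 3 of 6 rose and 1 fell: Igj, the joining chain of antibodies, was 4.44, 0.145 and 0 FPKM and then 89.5, 8.12 and 53.6 (log2 change 4.27 ± 0.996 SE, adjusted p = 0.0333), while Sdc1, shared by plasma cells and epithelia, fell by 2.64. The NK and T cell list had 0 of 3 tested markers called, with a summed level of at most 11.3 FPKM in any library. All 3 passed the filter through the doxycycline group alone, as did 2 of the 3 B and plasma cell rises. Of 5 mesothelial markers 2 rose. Wt1 was 1.395, 1.390 and 1.56 FPKM untreated and 15.8, 6.82 and 15.96 after doxycycline. Upk3b, which passed the filter through the doxycycline group alone, was 0.0284, 0.300 and 0 and then 2.18, 4.13 and 17.4. Another, Msln, was 192.9, 1295 and 665.9 FPKM untreated and 20.1, 200.5 and 213.8 after doxycycline (adjusted p = 0.147), and Krt19, which epithelia share, had a log2 change of -2.50. The summed mesothelial level, led by these abundant markers, was 348.6 to 4321 FPKM untreated and 76.4 to 511.9 after doxycycline. Among fibroblast, mast cell and endothelial lists, 4, 3 and 0 markers were called without untreated replicate 3.

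Hox and imprinted genes gave 2 further lists. Hox genes, which mark the position of mesenchymal and other cells along the body axis, were tested in 19 of 39 cases. Of these, 10 were tested through their doxycycline levels alone, so falls among them could not appear, and 6 of the 10 rose; of the other 9, 4 rose and 0 fell. Under quantile normalization 2 Hox genes were called. Hoxb7 was 2.50, 0.383 and 0.808 FPKM untreated and 7.41, 5.23 and 9.29 after doxycycline, Hoxc4 was 0.555, 0 and 0.414 and then 2.60, 3.47 and 3.73, and Hoxa7 was 0.357, 0.118 and 0.191 and then 1.89, 1.88 and 1.55. Levels were low throughout, and no Hox gene was called without untreated replicates 2 or 3 or doxycycline replicate 3. Of 20 imprinted genes 4 rose and 0 fell: Grb10, an adaptor that restrains insulin and IGF receptors, was 2.78, 1.46 and 1.497 FPKM and then 20.7, 13.4 and 21.9 (log2 change 2.76 ± 0.32 SE, adjusted p = 0.00753), and Sgce was 3.33, 1.06 and 1.51 and then 20.4, 13.7 and 20.0. Igf1, the ligand of the receptor that Grb10 binds, rose by 4.43, while the receptor Igf1r was 9.27, 6.91 and 6.13 FPKM and then 5.19, 3.93 and 3.9999 and did not pass (adjusted p = 0.148). Among other regulators, Myc fell by 2.15. The immediate-early factor Klf6 fell by 2.07, the 1 fall beside 3 rises among 28 KLF and nuclear receptor genes, and the intestinal factor Cdx2 fell by 1.62, the 1 gene called of 17 pancreatic and gut lineage factors (5.88%). Sesn1, a stress-induced inhibitor of mTORC1, rose by 2.47 in a list of 25 FOXO and nutrient-stress genes with 4 rises and 1 fall, and the deacetylase Hdac5 rose by 1.85 in a list of 41 chromatin genes with 2 rises and 5 falls. Of the 6 fits that left out 1 library, Myc and Klf6 were called in 2 each, Cdx2 and Sesn1 in 1 each and Hdac5 in 3.

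Some genes did not hold against untreated replicate 1. They were counted among genes called without it whose higher group averaged at least 5 FPKM, leaving out predicted genes, clones and small RNAs. Within that part, 206 rises and 427 falls had that tumour at or beyond the mean of the doxycycline tumours. The size of that part was not counted, so these numbers give no share and do not compare rises with falls. Over all genes called without that tumour, 83.6% of 1984 rises and 78.9% of 2239 falls kept their direction against it. Prap1, a secreted protein of gut epithelium, was 0.350 FPKM in untreated replicate 1, 904.1 and 176.3 in the other untreated tumours and 1.27, 2.27 and 1.09 after doxycycline. The intestinal keratin Krt20 was 6.98 FPKM there, 639.5 and 519.6 in the others and 2.21, 36.2 and 12.8 after doxycycline, and the ductal keratin Krt7 was 7.10, 3348 and 1258 and then 16.8, 144.5 and 143.1. The 8 largest such falls also included Krt23, Gcnt3, S100a14, Ctse and Avil, genes of glandular and gut-like epithelium. On the other side, the skeletal actin Acta1 was 144.4 FPKM in untreated replicate 1, 0.588 and 0.521 in the others and 12.1, 1544 and 95.9 after doxycycline, and Meg3, an imprinted long non-coding RNA, was 352.7, 0.793 and 4.28 and then 12.9, 43.5 and 62.5. The protease Htra1 was 144.5, 7.38 and 8.28 FPKM and then 148.3, 76.8 and 119.9. With all 6 libraries none of these 6 genes with values passed.

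List medians against each untreated tumour show the same division. Simple keratins had a median of 0.19 against untreated replicate 1 and -5.03 and -3.96 against the others, epithelial junction genes 1.79 against -1.74 and -1.37, and trefoil and gastric genes 2.75 against -1.48 and -0.95. The whole plasminogen and protease list had 1.02 against -1.71 and -1.36, and laminins 1.02 against -1.14 and -0.75. With all 6 libraries 3 of 34 genes of the junction and keratin list were called (8.82%, beside 16.7% of all genes), and without untreated replicate 1 19 were, 18 of them lower. Long non-coding RNAs had a median of -1.27 against untreated replicate 1 and 1.73 and 1.56 against the others, with 0 of 12 called. TRiC, proteasome, ribosomal, annexin and S100, sterol synthesis, hypoxia, complement, chemokine, endothelial and fibroblast lists kept the sign of their median against all 3.

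**Figure D5:**
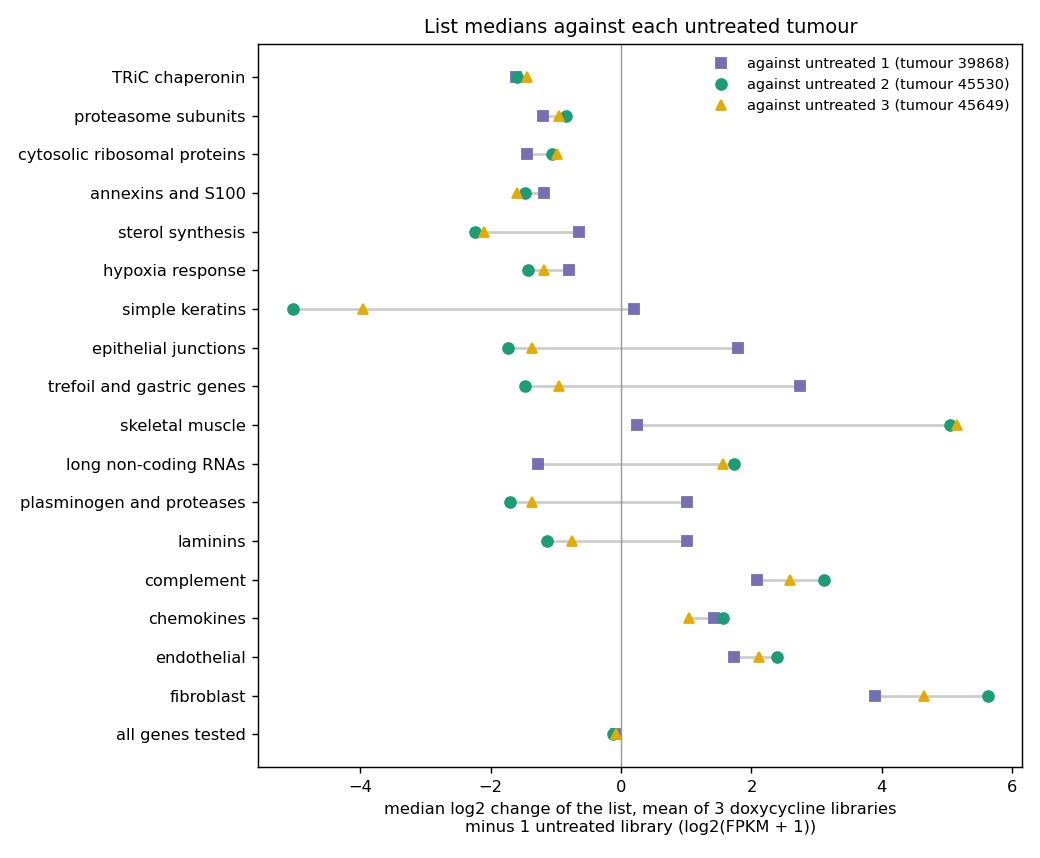
Median log2 change of 18 sets of genes, the last being all genes tested: mean of the doxycycline tumours minus a single untreated tumour, with 1 symbol per untreated tumour. Epithelial junctions (1.79 against -1.74 and -1.37), trefoil and gastric genes, simple keratins, plasminogen system genes, laminins and long non-coding RNAs change sign for untreated replicate 1 (square), while the 3 symbols nearly coincide for TRiC.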

How the data were processed

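RNA from flash-frozen whole tumour tissue was prepared with RNeasy and TruSeq RNA kits and sequenced on a HiSeq2000, per the labels' protocols. Cutadapt, TopHat and the mm9 build are named in the submitters' processing notes. The gene table holds FPKM values deposited by the authors. No source used here gives the program, annotation or strand setting behind them, so overlapping genes, antisense genes and near-identical paralogues cannot be told apart. Abundant genes lower the FPKM of all others in a library, and no further scaling is stated. Columns were matched to samples by tumour number. Of 23951 rows, 27 with symbols turned into dates were left out. Of 20 housekeeping genes, 0 were listed at 0 in any library.

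Genes with at least 1 FPKM in at least 3 libraries were kept, and log2(FPKM + 1) was fitted by limma 3.58.1 under R 4.3.3 (trended eBayes, 2-sided, Benjamini-Hochberg over all 12696 genes, no covariate). No count model or set test was used. With 3 tumours against 3 an exact permutation test cannot go below p = 0.1, so p-values rest on a spread shared across genes. The steps were tested on simulated data. Promoter sequences are from RefSeq on GRCm38.p6, matched by symbol for 9565 of 12696 tested genes; no other coordinate is given because the files are on mm9.

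The comparison, members and lists were chosen with earlier results of these data known. Per list, up to 3 largest rises and 3 largest falls were named among called genes whose groups do not overlap and whose higher group averages at least 5 FPKM, then the 10 rises and 10 falls with the largest gap between groups, and up to 8 genes per side for which untreated replicate 1 lay at or beyond the doxycycline mean. Predicted genes, clones and small RNAs were not named. A few genes are not reported here. Myc, Igf1, Epcam, Vim and some others were named in any case. Other genes, such as the further members of the Wnt, sterol, hypoxia and mast cell lists, were chosen after their values were seen.

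Alternatives were a pseudocount of 0.1, no filter, a mean of at least 5 FPKM, median-ratio scaling, quantile normalization, eBayes without a trend, robust eBayes, library weights, leaving out each library and each untreated tumour alone.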

Additional observations from a re-analysis of the deposited data

How the results depend on the processing

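The number of calls was 2079 with a pseudocount of 0.1, 2048 with no filter, 1851 under median-ratio scaling, 2027 without a trend and 2120 with robust eBayes, beside 2121. With a mean of at least 5 FPKM 1340 genes were called (439 higher, 901 lower), and 927 of them reached 1 log2 unit against each untreated tumour, beside 1459. Quantile normalization gave 1078 calls (558 higher, 520 lower), 921 of them by 1 log2 unit, and library weights gave 5935 (2739 higher, 3196 lower). Leaving out 1 library gave between 113 and 4223 calls, 64 to 1984 higher and 43 to 2239 lower, of which 113 to 3020 reached 1 log2 unit against each untreated tumour kept; the lowest count came without untreated replicate 3 and the highest without untreated replicate 1, and without untreated replicate 2 and doxycycline replicates 1, 2 and 3 there were 341, 1004, 908 and 120 calls. Against untreated replicates 1, 2 and 3 alone 17, 820 and 682 genes were called (5, 370 and 335 higher and 12, 450 and 347 lower), each assuming that the lone tumour varies like the doxycycline group; all of these reached 1 log2 unit.

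Among the named genes the direction turned for a few that did not pass with all 6 libraries. Epcam was -2.24 without untreated replicate 1, 0.13 under quantile normalization, 0.52 and 0.77 without untreated replicates 2 and 3, 0.58 without doxycycline replicate 1 and 3.52 against untreated replicate 1 alone. Cdh1 was -2.79 without untreated replicate 1, 0.23 and 0.053 without untreated replicates 2 and 3, 0.16 without doxycycline replicate 1 and 3.07 against untreated replicate 1. S100a4 was 0.34 without untreated replicate 1, -3.03 without untreated replicate 3 and 1.03 against untreated replicate 3 alone, and Meg3 was 3.47 without untreated replicate 1, -0.35 without untreated replicate 2 and -3.38 against untreated replicate 1. Against untreated replicate 1 alone Car9 was 0.62, Prap1 0.89, Krt20 0.57, Krt7 3.15, Krt23 2.28, S100a14 0.39, Ctse 1.88, Avil 0.53, Acta1 -0.21 and Htra1 -0.38. No paired analysis was possible because each tumour has its own number and the replicate numbers were given in accession order.

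Depth in reads is unknown, so the counting error of low values, such as those of Hox genes and Lgr5, cannot be given. The 3 tumours per group limit the precision of every value.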

Other observations

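Several further classes held called genes in both directions. Of 37 axon guidance genes 4 rose and 5 fell (24.3% called). Of these 4 rises 2 passed the filter through the doxycycline group alone, Sema3g among them. Epha2, an ephrin receptor of epithelial and tumour cells, fell by 3.39 on the log2 scale, while Slit3, a secreted guidance cue of mesenchyme, rose by 1.97 and the endothelial semaphorin Sema3g by 2.24. Among 12 cadherins and protocadherins 4 rose and 1 fell, with the mesenchymal cadherin Cdh11 at a log2 change of 3.0 (6.27 ± 5.86 FPKM untreated and 48.8 ± 22.8 with doxycycline, SD, n = 3) and Cdh6 at a log2 change of -2.21. Of the 4 cadherin rises 2 passed the filter through the doxycycline group alone. Of 17 ADAMTS proteases, which cut matrix proteoglycans and procollagens, 8 rose and 1 fell (5 of the 17 passed the filter through the doxycycline group alone, 4 of them among the rises), led by Adamts15 (3.63) and the procollagen N-proteinase Adamts2 (2.66). Cathepsins rose in 2 of 13 cases, with the collagen-cutting Ctsk at a log2 change of 3.48. No ADAMTS gene was called without untreated replicates 2 or 3 or doxycycline replicate 3.

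Secretory granule genes had 2 of 12 higher and 3 lower. Both rises were among 3 members that passed the filter through the doxycycline group alone, and of the other 9 members 0 rose. Of the 3 falls, 1 passed through the untreated group alone. Cpe, carboxypeptidase E of the regulated secretory pathway, was 736.3, 341.6 and 287.5 FPKM untreated and 82.5, 98.5 and 76.3 after doxycycline, and Chgb, a chromogranin of endocrine cells, was 0, 0.383 and 0.558 FPKM and then 5.41, 4.26 and 8.01. Islet markers summed to 0.187, 67.6 and 23.7 FPKM untreated and 7478, 40.0 and 2526 after doxycycline, so the groups overlapped for that sum. All 6 islet markers tested had positive log2 changes and 2 rose, without overlap between groups, as for Chgb. Sst was 0, 0.329 and 0.801 FPKM and then 69.7, 21.8 and 131.4, and Ppy was 0, 0 and 1.11 and then 43.9, 11.4 and 59.0. Sst, like Chgb, passed the filter through the doxycycline group alone. The part of islet tissue in the Chgb rise was not tested. Pgc, the pepsinogen of stomach glands, was the 1 of 16 mucin and gastric genes called, at 0.0871, 4.68 and 1.52 FPKM untreated and 28.5, 30.6 and 52.2 after doxycycline. Foxj1, the regulator of motile cilia, rose by 2.28. Psat1, an enzyme of serine synthesis, fell by 1.87, and Mthfd1l, an enzyme of one-carbon metabolism, by 2.15. Both belong to a list of 27 serine, one-carbon and amino acid genes, of which 5 fell and 1 rose. That 1 rise passed the filter through the doxycycline group alone. Solute carriers were close to the background, with 18 of 184 higher and 15 lower (17.9% called beside 16.7%), led by Slc11a1, a metal transporter of macrophages (3.18), and among the falls by Slc2a1 and the sodium-proton exchanger Slc9a2 (-3.23). Of the 18 solute carrier rises 9 passed the filter through the doxycycline group alone. Zinc finger genes of the Zfp family were below the background, with 12 of 269 called (4.46%), and so were circadian genes (1 of 18), Rab GTPases (7 of 46) and complexes III, IV and V (3 of 41), while 0 of 17 fatty acid oxidation genes were called.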
